A study of Mus musculus with 16 samples.

Results

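The annexins are a family of calcium-dependent, phospholipid-binding proteins, and 8 genes of the family (*Anxa1*, *Anxa2*, *Anxa3*, *Anxa4*, *Anxa5*, *Anxa6*, *Anxa7* and *Anxa11*) were followed in bulk cortex RNA from mice given LPS or PBS at ZT1 or ZT13. The genes were picked by symbol from a table of 55487 genes, which also held 4 other annexin genes. All 8 passed the filter on low values (3 or more of the 16 samples at 1 CPM or above, CPM being reads scaled to a total of 1000000 per sample), as did 18859 genes in all.

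Annexins bind membranes that carry acidic phospholipids when intracellular calcium rises, and through this they take part in membrane repair, exocytosis and endocytosis. Annexin A1 is induced by glucocorticoids, is released by myeloid cells, and acts on formyl peptide receptors to limit leukocyte entry. Annexin A2 pairs with S100A10 at the cell surface, where the complex gathers plasminogen and its activator, and in brain both A1 and A2 are best known from vessels, microglia and incoming leukocytes.

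The samples came from wild-type male C57Bl6 mice aged 2 months, which received i.p. injections of 2 mg/kg LPS (bacterial lipopolysaccharide, an agonist of TLR4) or of PBS on 2 consecutive days, either at ZT1, shortly after lights on, or at ZT13, shortly after lights off. Cortex was taken on the third day, and each sample was 1 mouse by its label. The groups were ZT1 PBS (n = 3), ZT1 LPS (n = 5), ZT13 PBS (n = 3) and ZT13 LPS (n = 5). Groups were taken from the titles of the samples. The treatment entered in another field contradicted the title for 12 of 16 samples. The acute-phase gene *Lcn2* followed the titles, at 0.0421 to 0.197 CPM in all 6 PBS mice and 107 to 418 CPM in all 10 LPS mice. Time of injection and time of harvest moved together, so they cannot be told apart. The mice were described as littermates, and which of them shared a litter or a cage was not stated, so p-values measured the spread between these samples.

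The libraries held 20251852 to 29112760 reads on genes by the smallest step of the CPM values, and 3 reads corresponded to 0.103 to 0.148 CPM. The neuronal markers (*Rbfox3*, *Snap25*, *Syt1* and *Slc17a7*) summed to 3798 to 4456 CPM in every sample, and none of them was absent. Choroid plexus markers (*Ttr*, *Folr1*, *Kl* and *Clic6*) varied from 11.5 to 960.3 CPM among mice, within each of the 4 groups, so all comparisons were also fitted with that sum as a covariate. That fit, chosen after seeing the data, left 5 members past the threshold at ZT1 and 7 at ZT13, as in the fit without it. In bulk tissue, fewer cells of a type and less RNA per cell cannot be told apart.

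The promoters of 6 of the 8 members were in the RefSeq table used here (build GRCm38.p6), each running from 250 bases before the transcription start to 50 bases past it. *Anxa3* and *Anxa6* were not matched. A few windows are shown, because *Anxa2* and *Anxa1* had the 2 largest differences with LPS at each time, *Anxa4* held a match for NF-kappaB, the factor that TLR4 signaling activates, and *Anxa7* held an E-box, the motif bound by the clock proteins CLOCK and BMAL1. Capitals mark the motif matches.
Anxa2 (chr9:69453433-69453732, + strand): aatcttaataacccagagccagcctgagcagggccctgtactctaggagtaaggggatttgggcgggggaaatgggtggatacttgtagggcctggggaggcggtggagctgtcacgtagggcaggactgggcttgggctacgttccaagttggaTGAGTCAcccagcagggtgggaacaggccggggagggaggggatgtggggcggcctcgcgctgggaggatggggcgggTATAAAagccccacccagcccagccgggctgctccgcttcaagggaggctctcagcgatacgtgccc
Anxa1 (chr19:20390622-20390921, − strand): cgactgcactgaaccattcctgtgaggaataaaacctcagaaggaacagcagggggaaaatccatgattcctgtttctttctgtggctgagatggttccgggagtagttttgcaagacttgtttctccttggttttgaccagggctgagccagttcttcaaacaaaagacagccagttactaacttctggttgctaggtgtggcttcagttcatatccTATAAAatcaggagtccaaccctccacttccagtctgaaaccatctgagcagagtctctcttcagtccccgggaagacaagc
Anxa4 (chr6:86793535-86793834, − strand): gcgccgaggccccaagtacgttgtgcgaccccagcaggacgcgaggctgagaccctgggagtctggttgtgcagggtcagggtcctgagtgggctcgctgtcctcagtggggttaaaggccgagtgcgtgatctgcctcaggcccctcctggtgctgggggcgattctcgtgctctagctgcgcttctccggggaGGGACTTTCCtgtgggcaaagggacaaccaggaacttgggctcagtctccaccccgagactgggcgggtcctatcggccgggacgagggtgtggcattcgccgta
Anxa7 (chr14:20479892-20480191, − strand): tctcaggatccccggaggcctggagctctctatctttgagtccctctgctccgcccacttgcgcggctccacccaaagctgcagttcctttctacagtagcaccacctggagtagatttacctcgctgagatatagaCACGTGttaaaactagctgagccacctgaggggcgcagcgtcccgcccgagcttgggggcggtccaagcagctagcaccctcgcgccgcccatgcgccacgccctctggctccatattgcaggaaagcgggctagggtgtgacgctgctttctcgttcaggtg

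In these windows, the *Anxa2* promoter held an AP-1 motif (TGANTCA, found as TGAGTCA) that began 95 bases before the start, and 7.81% of 32851 promoters held one on either strand. The *Anxa4* window held its NF-kappaB match 55 bases before the start, a pattern in 8.46% of promoters. The second *Anxa7* window, of a start downstream of the other, held CACGTG 113 bases before the start, and 7.15% of promoters held that E-box. No member window held the STAT motif TTCNNNGAA (8.3% of promoters), the cAMP response element TGACGTCA (1.79%) or the glucocorticoid response element (0.475%). A TATA box (TATAAA, 13.6% of promoters) was looked for only after the sequences had been read, and 2 of the 6 matched members held it: *Anxa1*, 32 bases before the start, and *Anxa2*, 17 bases before it. A match is a description of the letters in the window, not of binding.

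The first question was which annexins changed with LPS at each time of day (TOD). *Anxa1*, *Anxa2*, *Anxa3*, *Anxa7* and *Anxa11* were higher with LPS at ZT1, and these 5 and also *Anxa4* and *Anxa5* were higher at ZT13. No member was lower with LPS at either time, where 5.15% of genes tested were called lower at ZT1 and 9.40% at ZT13. That is 5 of 8 members at ZT1, where 11.1% of the 18859 genes tested were called higher and 16.2% in either direction, and 7 of 8 at ZT13, where 19.2% were called higher and 28.6% in either direction (limma, Benjamini-Hochberg adjusted p under 0.05). The median log2 difference over the 8 members was 0.41 at ZT1 and 0.64 at ZT13, beside 0.04 and 0.05 over all genes tested.

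**Figure D1:**
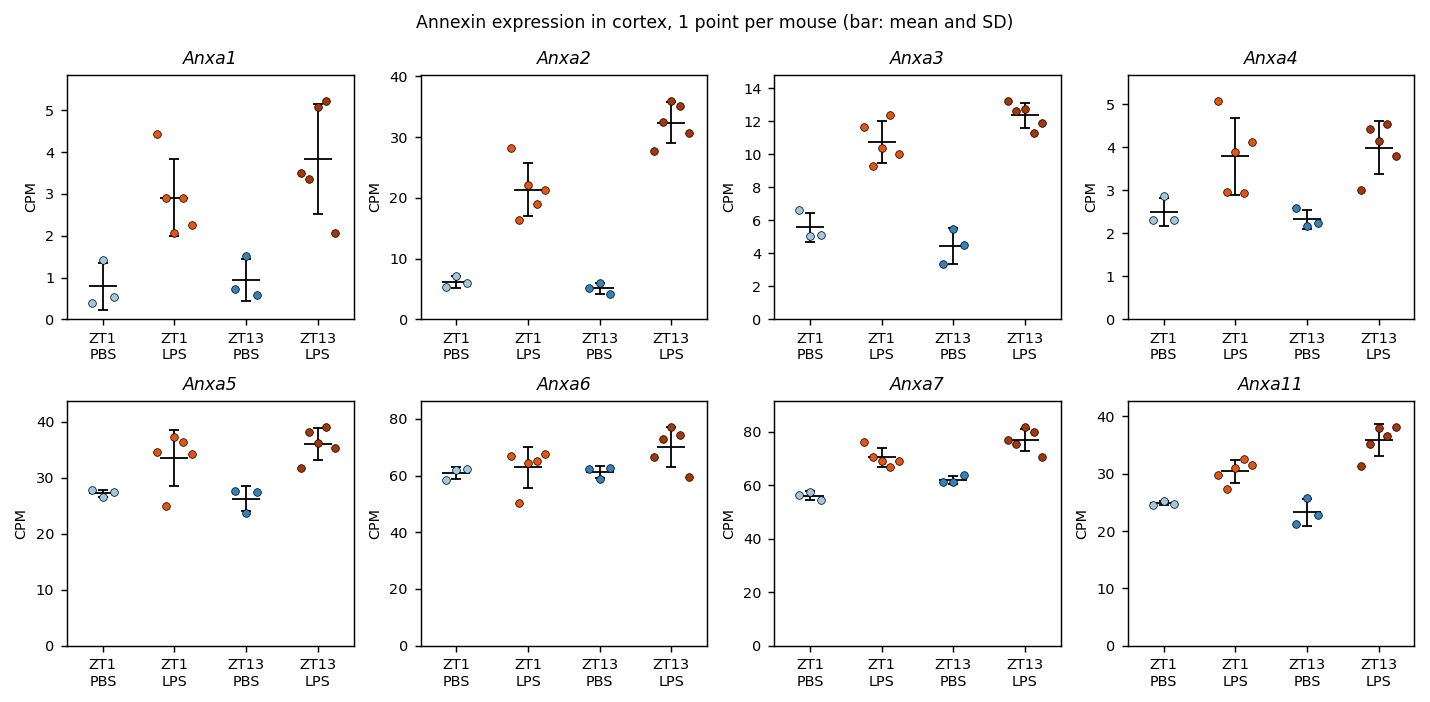
CPM of each annexin gene (y axis) in the 4 groups (x axis), 1 point per mouse, with the mean and SD as bars. In *Anxa2* all 5 mice of each LPS group lie above 16 CPM and all PBS mice below 8, whereas the *Anxa6* groups overlap.

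*Anxa2* (ENSMUSG00000032231, chr9:69453620-69491795, + strand, GRCm38), the partner of S100A10, had the largest response of the family at ZT13. At ZT1 the order of *Anxa2* and *Anxa1* depended on the scale: *Anxa2* had the larger log2(CPM + 0.5) difference, but the fold of means was 3.68 for *Anxa1* and 3.49 for *Anxa2*, and with a pseudocount of 0.1 the log2 difference was 1.88 for *Anxa1* and 1.77 for *Anxa2*. At ZT1 it was at 5.28, 7.16 and 5.94 CPM in the PBS mice and at 28.1, 16.3, 22.2, 19.0 and 21.3 CPM in the LPS mice. At ZT13 it was at 5.16, 5.92 and 4.21 CPM in the PBS mice and at 27.7, 32.4, 36.0, 35.2 and 30.7 CPM in the LPS mice. The groups did not overlap at either time, and the ZT13 LPS mice lay above the ZT1 LPS mice except that the lowest of them, at 27.7 CPM, was just under the highest ZT1 mouse, replicate 1 at 28.1 CPM. The mean rose from 6.12 ± 0.96 to 21.4 ± 4.41 CPM at ZT1, a 3.49-fold difference, and from 5.10 ± 0.86 to 32.4 ± 3.36 CPM at ZT13, a 6.35-fold difference (SD, n = 3 and 5). On the scale of log2(CPM + 0.5) the difference was 1.71 (SE 0.15, limma adjusted p = 2.6e-05) at ZT1 and 2.56 (SE 0.10, limma adjusted p = 8.0e-10) at ZT13.

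*Anxa1* (ENSMUSG00000024659, chr19:20373428-20390944, − strand), the glucocorticoid-induced mediator, had the lowest level per kilobase of the 8 in PBS mice. At ZT1 it was at 0.394, 1.43 and 0.547 CPM with PBS and at 4.43, 2.91, 2.06, 2.91 and 2.27 CPM with LPS. At ZT13 it was at 0.721, 1.53 and 0.582 CPM with PBS and at 3.499, 3.35, 5.07, 5.23 and 2.06 CPM with LPS. The LPS mice lay above the PBS mice at both times, and 1 PBS mouse of each time, replicate 2, stood above the other 2. No other PBS mouse reached 1 CPM, so *Anxa1* passed the filter, which asks for 3 samples, only through LPS mice. The log2 difference was 1.45 (SE 0.27, limma adjusted p = 0.0039) at ZT1 and 1.59 (SE 0.26, limma adjusted p = 4.0e-04) at ZT13. Without a filter on low values the ZT1 difference had an adjusted p of 0.056.

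*Anxa3* (ENSMUSG00000029484, chr5:96793339-96845966, + strand), an annexin found in blood vessels and in phagocytes, was also higher with LPS at both times. At ZT1 it was at 6.61, 5.04 and 5.09 CPM with PBS and at 11.7, 9.27, 10.4, 12.4 and 10.02 CPM with LPS. At ZT13 it was at 3.34, 5.50 and 4.52 CPM with PBS and at 13.2, 12.6, 12.7, 11.3 and 11.9 CPM with LPS. No LPS mouse was as low as a PBS mouse at either time, and the mean differed 1.93-fold at ZT1 and 2.77-fold at ZT13. The log2 difference was 0.89 (SE 0.12, limma adjusted p = 4.9e-04) and 1.40 (SE 0.12, limma adjusted p = 1.3e-06).

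*Anxa11* (ENSMUSG00000021866, chr14:25842156-25886804, + strand), which binds RNA granules to lysosomes for transport along axons, was higher with LPS by less than those 3. At ZT1 it was at 24.6, 25.3 and 24.7 CPM with PBS and at 29.7, 27.4, 31.0, 32.6 and 31.4 CPM with LPS. At ZT13 it was at 21.2, 25.7 and 22.7 CPM with PBS and at 31.3, 35.1, 38.0, 36.5 and 38.1 CPM with LPS. The groups did not overlap at either time. The log2 difference was 0.28 (SE 0.06, limma adjusted p = 0.011) at ZT1 and 0.61 (SE 0.08, limma adjusted p = 3.1e-05) at ZT13. The opposite-strand gene *Anxa11os*, which shares exon sequence with it, was at 1.42 to 2.61 CPM over the 16 mice. *Gm16144*, opposite to *Anxa2*, was at 0 to 0.490 CPM. Strand use in counting is not given in the sources used here, so reads of such pairs cannot be told apart.

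*Anxa7* (ENSMUSG00000021814, chr14:20455260-20480133, − strand), a fusion-promoting annexin known for secretory granules, showed the most even response between the times. At ZT1 it was at 56.4, 57.5 and 54.4 CPM with PBS and at 76.1, 70.5, 69.1, 66.7 and 69.2 CPM with LPS. At ZT13 it was at 61.1, 61.1 and 63.6 CPM with PBS and at 76.8, 75.4, 81.7, 79.7 and 70.6 CPM with LPS. The groups did not overlap at either time, and the spread among PBS mice was small. The log2 difference was 0.32 (SE 0.05, limma adjusted p = 0.0013) at ZT1 and 0.31 (SE 0.05, limma adjusted p = 2.6e-04) at ZT13.

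*Anxa4* (ENSMUSG00000029994, chr6:86736840-86793584, − strand), an annexin of secretory epithelia, and *Anxa5* (ENSMUSG00000027712, chr3:36448923-36475894, − strand), which binds exposed phosphatidylserine, passed the threshold at ZT13 only. *Anxa4* was at 2.32, 2.86 and 2.32 CPM with PBS and 5.08, 2.95, 3.88, 2.94 and 4.12 CPM with LPS at ZT1. Its 2 lowest LPS mice there, replicates 2 and 4, lay just above the highest PBS mouse. At ZT13 the *Anxa4* PBS mice were at 2.17 to 2.58 CPM and the LPS mice at 3.01 to 4.55 CPM, which did not overlap. Its log2 difference was 0.50 (SE 0.17, limma adjusted p = 0.070) at ZT1 and 0.66 (SE 0.14, limma adjusted p = 0.0026) at ZT13. *Anxa5* was at 26.6 to 27.8 CPM with PBS and 24.9 to 37.3 CPM with LPS at ZT1, where replicate 2 at 24.9 CPM was the only LPS mouse within or below the PBS range. At ZT13 it was at 23.6 to 27.6 CPM with PBS and 31.7 to 39.0 CPM with LPS. The *Anxa5* log2 difference was 0.28 (SE 0.11, limma adjusted p = 0.12) at ZT1 and 0.45 (SE 0.07, limma adjusted p = 3.3e-04) at ZT13. Without ZT1 LPS replicate 2, the limma adjusted p at ZT1 was 0.037 for *Anxa4* and 6.4e-04 for *Anxa5*. For each gene it was the only 1 of 8 fits without 1 mouse that passed. Over those fits the limma adjusted p reached 0.20 for *Anxa4* and 0.26 for *Anxa5*. That these 2 passed at one time and not at the other does not show a difference between the times, since the interaction was 0.16 for *Anxa4* (limma adjusted p = 0.89) and 0.17 for *Anxa5* (limma adjusted p = 0.78).

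*Anxa6* (ENSMUSG00000018340, chr11:54979108-55033445, − strand), a large annexin with a doubled core and roles in cholesterol and endosome traffic, was not called at either time. It was at 58.5 to 62.3 CPM with PBS and 50.4 to 67.7 CPM with LPS at ZT1, and at 58.7 to 62.5 CPM with PBS and 59.6 to 77.1 CPM with LPS at ZT13. The groups overlapped at both times. ZT1 LPS replicate 2, at 50.4 CPM, was the low mouse at ZT1, with the other LPS mice there at 64.6 to 67.7 CPM. ZT13 LPS replicate 5 was the low mouse at ZT13. The log2 difference was 0.04 (95% CI −0.15 to 0.23, limma adjusted p = 0.82) at ZT1 and 0.19 (95% CI 0.04 to 0.34, limma adjusted p = 0.061) at ZT13. Without ZT13 LPS replicate 5, the latter had a limma adjusted p of 0.0025. It was the only 1 of 8 fits without 1 mouse that passed, and over those fits the limma adjusted p reached 0.20. At ZT1 none of the 8 such fits passed, with a log2 difference of 0.01 to 0.12 and a lowest limma adjusted p of 0.093.

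The 6 LPS groups that did not overlap their PBS group at ZT1 (*Anxa1*, *Anxa2*, *Anxa3*, *Anxa4*, *Anxa7* and *Anxa11*) compare with 15.9% of all genes tested that were above PBS in every mouse. At ZT13 there were 7, adding *Anxa5*, beside 20.9% of all genes tested. Over both times, 6 members had all 10 LPS mice above all 6 PBS mice, beside 8.64% of genes. With exact permutation of the mice (two-sided, difference of means), the smallest p that 3 against 5 mice allow, 0.036, was reached for those 6 members at ZT1 and for those 7 at ZT13. Groups that do not overlap must give this p, so it adds nothing to the counts of overlap.

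**Figure D2:**
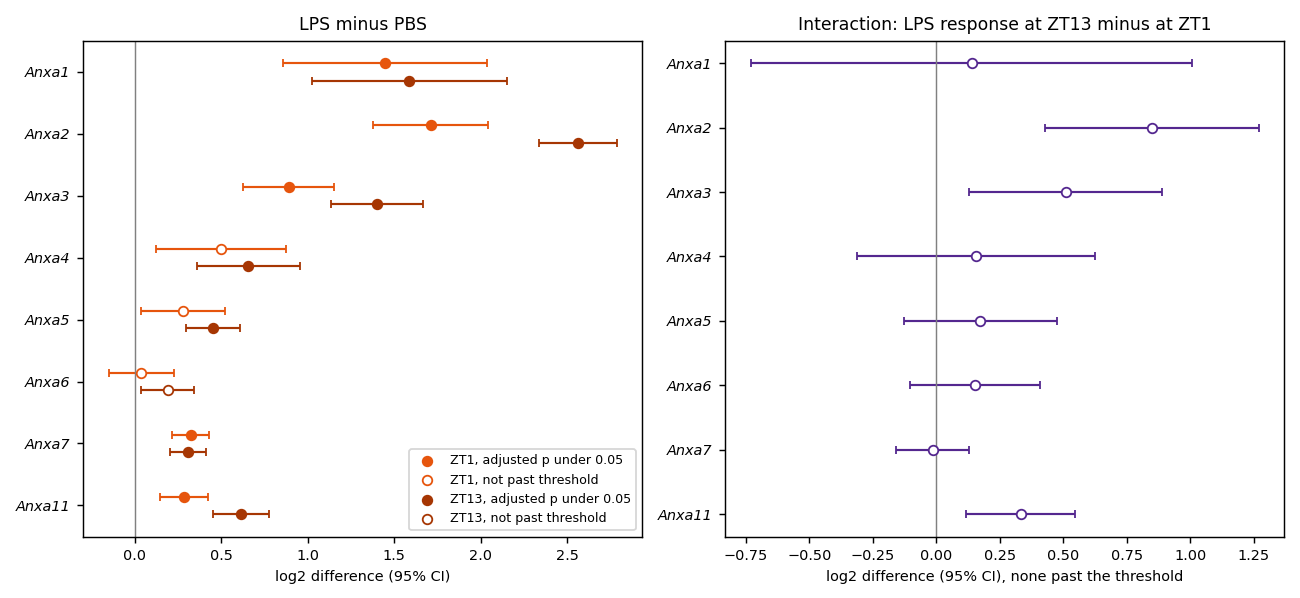
Left, log2 difference of LPS minus PBS (x axis, 95% CI) for each annexin gene (y axis) at ZT1 and ZT13, filled where the limma adjusted p was under 0.05. Right, the TOD × treatment interaction (ZT13 response minus ZT1 response, 95% CI), in which no gene passed that threshold and *Anxa2* stands at 0.85.

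The second question was whether the LPS response of the annexins differed between the times. No member passed the threshold for the TOD × treatment interaction, where 0.159% of genes tested did, and 3 of 8 (*Anxa2*, *Anxa3* and *Anxa11*) had an unadjusted p under 0.05, beside 9.25% of genes. The largest interaction was that of *Anxa2*, at 0.85 (SE 0.20, 95% CI 0.43 to 1.27, limma adjusted p = 0.12). *Anxa3* was at 0.51 (SE 0.18, 95% CI 0.13 to 0.89, limma adjusted p = 0.36) and *Anxa11* at 0.33 (SE 0.10, 95% CI 0.12 to 0.55, limma adjusted p = 0.26). *Anxa7* was at −0.01 (SE 0.07, 95% CI −0.16 to 0.13, limma adjusted p = 0.97), the narrowest interval of the family, and *Anxa1*, at 0.14, had the widest (95% CI −0.73 to 1.01). Without ZT1 LPS replicate 1, the *Anxa2* interaction was 0.95 (limma adjusted p = 0.021). It was the only 1 of 16 fits without 1 mouse that passed, and over those fits the limma adjusted p reached 0.34.

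Among LPS mice, the log2 level of *Anxa2* at ZT13 minus that at ZT1 was 0.61 (SE 0.12, limma adjusted p = 0.088). The two-sided exact permutation p of its mean was 0.016, where 5 against 5 allows 0.0079. No member passed the threshold in this comparison, beside 0.0212% of genes, and no member's groups separated in full, beside 1.55% of genes that lay higher at ZT13 in every mouse. All 8 members lay above 0, beside 55.6% of all genes tested, and their median was 0.18 beside 0.01 over all genes. The members' levels also correlated with each other over the mice of all groups (for *Anxa3*, from 0.434 with *Anxa6* to 0.941 with *Anxa2*). The 8 therefore cannot be counted as independent results. Of the members, 4 (*Anxa2*, *Anxa3*, *Anxa7* and *Anxa11*) had an unadjusted p under 0.05, beside 10.6% of genes. *Anxa11* differed by 0.23 (SE 0.06, limma adjusted p = 0.19), *Anxa3* by 0.20 (SE 0.08, limma adjusted p = 0.40) and *Anxa7* by 0.13 (SE 0.05, limma adjusted p = 0.34). Without ZT1 LPS replicate 1, the highest ZT1 mouse, the *Anxa2* difference was 0.71 (limma adjusted p = 0.010). It was the only 1 of 10 fits without 1 mouse that passed, and over those fits the limma adjusted p reached 0.26.

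In PBS mice no member passed the threshold between ZT13 and ZT1, beside 0.520% of genes tested, and 1 of 8, *Anxa7*, had an unadjusted p under 0.05, beside 13.5% of genes. The 3 ZT13 mice lay above the 3 ZT1 mice for 1 member, *Anxa7*, beside 9.52% of genes, and the mean was 56.1 ± 1.54 CPM at ZT1 and 61.9 ± 1.47 CPM at ZT13 (SD, n = 3). The log2 difference of *Anxa7* was 0.14 (SE 0.04, 95% CI 0.05 to 0.23, limma adjusted p = 0.19), and 3 against 3 mice cannot give an exact permutation p under 0.1. *Anxa2* and *Anxa3* were lower by −0.24 (95% CI −0.58 to 0.09) and −0.31 (95% CI −0.71 to 0.09) without passing it. The PBS mice of each time served also as controls of the LPS comparison of that time, so a member high in 1 PBS group is low in its LPS difference by the same amount.

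**Figure D3:**
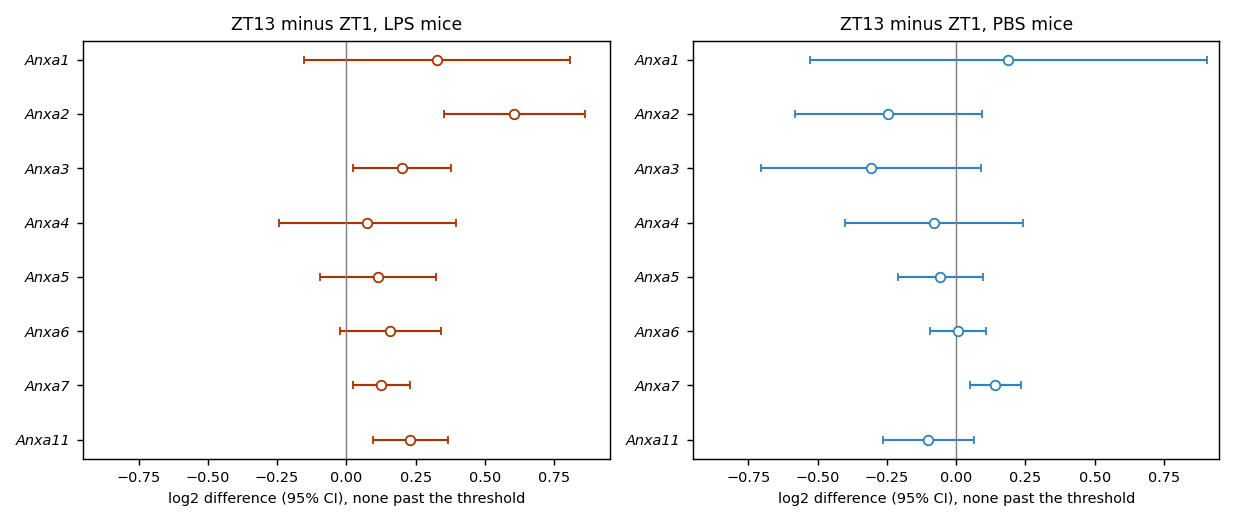
Log2 difference of ZT13 minus ZT1 (x axis, 95% CI) for each annexin gene (y axis), in LPS mice on the left and in PBS mice on the right. No gene passed the limma threshold in either group, and *Anxa2* stands at 0.61 in LPS mice and −0.24 in PBS mice.

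Per kilobase of the longest transcript (GENCODE M21), the order of the 8 genes was the same in both PBS groups: *Anxa6*, *Anxa7*, *Anxa5*, *Anxa11*, *Anxa3*, *Anxa2*, *Anxa4* and *Anxa1*. In ZT1 PBS mice the levels were 24.5 ± 0.84 CPM per kb for *Anxa6*, 19.3 ± 0.53 for *Anxa7*, 15.7 ± 0.36 for *Anxa5*, 9.11 ± 0.14 for *Anxa11*, 3.498 ± 0.56 for *Anxa3*, 2.69 ± 0.42 for *Anxa2*, 0.953 ± 0.12 for *Anxa4* and 0.473 ± 0.33 CPM per kb for *Anxa1* (SD, n = 3). No neighbours in that order overlapped in ZT1 PBS mice, though *Anxa2* reached 3.14 and *Anxa3* began at 3.16 CPM per kb, and *Anxa1* reached 0.855 and *Anxa4* began at 0.883 CPM per kb. In ZT13 PBS mice these same neighbours overlapped, and in ZT1 LPS mice *Anxa2* overlapped both *Anxa3* and *Anxa11*, and *Anxa6* overlapped *Anxa7*. In ZT13 LPS mice *Anxa2* was at 14.2 ± 1.48 CPM per kb, above *Anxa11* at 13.1 ± 1.03 and *Anxa3* at 7.75 ± 0.48, and the ranges of *Anxa2* and *Anxa11* overlapped. *Anxa1*, at 2.30 ± 0.79 CPM per kb, stood above *Anxa4* at 1.52 ± 0.23 (SD, n = 5), and these ranges overlapped too. With the union of exons as length, *Anxa2* stood above *Anxa3* and *Anxa5* above *Anxa7* in PBS mice already. Of the 4 other annexin genes, *Anxa9* was at 0.543 to 1.34 CPM, passed the filter and was not called in any comparison. *Anxa8* did not pass the filter, so it has no limma value. Its groups overlapped at ZT1, and at ZT13 it was at 0.179 to 0.455 CPM with PBS and at 0.796 to 1.30 CPM with LPS, a 2.83-fold difference of the means without overlap (two-sided exact permutation p = 0.036, the smallest that 3 against 5 mice allow). *Anxa13* was at 0 to 0.350 CPM, and *Anxa10* at 0 in 14 of 16 mice.

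The partners of the annexins were followed as lists, whose counts stand beside 11.1% of all genes tested called higher with LPS at ZT1 and 19.2% at ZT13 (5.15% and 9.40% lower). Of 4 S100 proteins that bind annexins, 3 were higher with LPS at ZT1 and 4 at ZT13, with a median log2 difference of 1.33 and 1.95. *S100a11*, which binds annexin A1, was at 0.986, 1.26 and 1.26 CPM in ZT1 PBS mice and at 8.63, 4.82, 5.38, 6.77 and 5.38 CPM in ZT1 LPS mice. It was at 0.867, 1.21 and 1.95 CPM in ZT13 PBS mice and at 7.64, 8.05, 11.5, 10.6 and 7.41 CPM in ZT13 LPS mice. *S100a11* groups did not overlap, and its log2 difference was 1.98 (SE 0.17) and 2.39 (SE 0.19). *S100a10*, the annexin A2 partner, changed less: 7.20 to 8.59 CPM with PBS and 7.88 to 11.1 CPM with LPS at ZT1, and 7.17 to 8.65 against 11.1 to 15.7 CPM at ZT13. Its log2 difference was 0.27 (SE 0.11, limma adjusted p = 0.13) at ZT1 and 0.64 (SE 0.11, limma adjusted p = 6.0e-04) at ZT13, where *Anxa2* differed by 2.56. *S100a6* differed by 1.39 and 2.01, and *S100a4* by 1.26 and 1.89, all past the threshold. *S100a4* was at 0.542 CPM or less in every PBS mouse, so it passed the filter only through LPS mice.

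**Figure D4:**
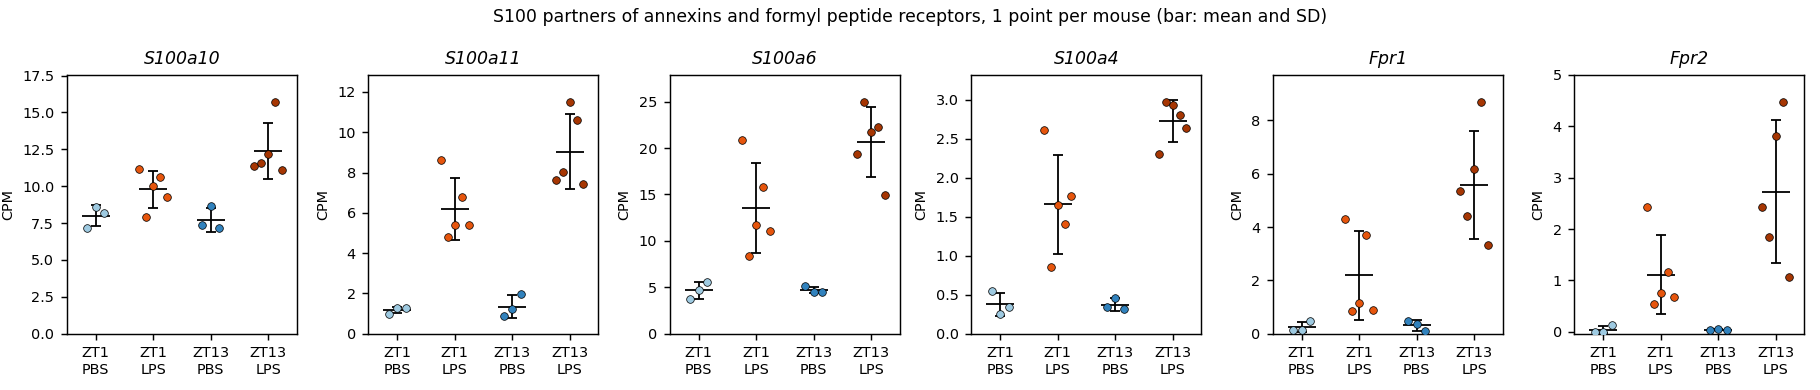
CPM (y axis) of the S100 partners of annexins and of *Fpr1* and *Fpr2* in the 4 groups (x axis), 1 point per mouse, with the mean and SD as bars. *S100a11* of LPS mice lies at 4.82 CPM or more and of PBS mice at 1.95 CPM or less, while *S100a10* overlaps at ZT1.

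The formyl peptide receptors *Fpr1* and *Fpr2*, through which annexin A1 acts, were called higher with LPS at each time, and *Fpr3* was listed at 0 in all mice. *Fpr1* and *Fpr2* were under 1 CPM in every PBS mouse, so they passed the filter only through LPS mice. That 2 of 2 tested were called higher was therefore in part set by the filter. *Fpr1* was at 0.148, 0.148 and 0.463 CPM in ZT1 PBS mice and at 4.29, 0.850, 1.17, 3.71 and 0.906 CPM in ZT1 LPS mice. It was at 0.493, 0.370 and 0.0896 CPM in ZT13 PBS mice and at 5.36, 4.43, 6.16, 8.68 and 3.31 CPM in ZT13 LPS mice. *Fpr2* was at or below the level of 3 reads in all 6 PBS mice and at 0.537 to 2.43 CPM with LPS at ZT1 and 1.07 to 4.47 CPM with LPS at ZT13. The *Fpr1* log2 difference was 1.63 (SE 0.42, limma adjusted p = 0.023) at ZT1 and 2.87 (SE 0.25, limma adjusted p = 1.2e-06) at ZT13, and its interaction was 1.23 (limma adjusted p = 0.49).

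Of 3 genes of plasminogen activation, *Plaur*, the urokinase receptor, was higher at ZT1 (1.55, limma adjusted p = 0.0013) and ZT13 (1.81, limma adjusted p = 2.5e-06). *Plaur* was at 0.627 CPM or less in every PBS mouse, so it passed the filter only through LPS mice. *Plat*, tissue plasminogen activator, passed at ZT13 (0.38, limma adjusted p = 6.3e-04) and *Plau*, urokinase, at neither. Of 6 partners in membrane repair and scaffolding, 3 were higher at ZT1 and 4 at ZT13, beside the same 11.1% and 19.2% of all genes. *Dysf*, the membrane repair protein dysferlin, differed by 0.71 and 1.25, *Myof* by 0.90 and 1.11, and *Ahnak*, a scaffold that binds the annexin A2 complex, by 0.89 and 1.05. *Sri* passed at ZT13 (0.20), and the calcium sensors *Pdcd6* and *Pef1* at neither time. Of 5 glucocorticoid-responsive genes, 4 were higher and 1, *Dusp1*, lower with LPS at ZT1, and 2 were higher and 1 lower at ZT13. *Tsc22d3*, *Fkbp5* and *Sgk1* were higher at ZT13 than ZT1 in PBS mice, by 0.86, 0.91 and 1.03, beside 0.520% of genes called in that comparison. *Zbtb16* (0.48) and *Dusp1* (−0.21) did not pass there, nor did *Anxa1*, at 0.19 (95% CI −0.53 to 0.91, limma adjusted p = 0.85). The difference between *Anxa1* and these genes was not tested.

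Markers of other cells moved with LPS beside the annexins. Neutrophil markers (*S100a8*, *S100a9*, *Ly6g* and *Mmp8*) summed to 0.168 to 0.542 CPM in ZT1 PBS and 0.0759 to 0.269 CPM in ZT13 PBS mice, and to 6.80 to 40.7 CPM in ZT1 LPS and 27.4 to 77.4 CPM in ZT13 LPS mice. Of these 4, 1 was at 0 in all ZT1 PBS mice and 2 in all ZT13 PBS mice. *Ly6g* stayed near 0 with LPS too, at a mean of 0.0551 CPM at ZT1 and 0.0648 CPM at ZT13. It did not pass the filter and was not tested. The rise of the sum therefore came from *S100a8*, *S100a9* and *Mmp8*, which were called higher with LPS at each time. These 3 were under 1 CPM in every PBS mouse, so they passed the filter only through LPS mice. Monocyte and border macrophage markers summed to 7.41 to 10.96 and 8.57 to 8.96 CPM with PBS and to 15.4 to 54.9 and 35.8 to 57.9 CPM with LPS, with 4 of 5 called higher at each time. Among those called, *Ccr2* and *Ly6c2* were under 1 CPM in every PBS mouse and passed the filter only through LPS mice. Endothelial markers summed to 115.3 to 117.7 and 71.7 to 87.2 CPM with PBS and to 134.6 to 179.9 and 180.1 to 203.4 CPM with LPS. All 4 passed the interaction, which no annexin did, beside 0.159% of genes tested. None of the 4 was called between the times in LPS mice. In PBS mice *Cldn5* (−1.10) and *Flt1* (−0.49) were called lower at ZT13 than at ZT1. With LPS at ZT1, 3 of the 4 were called higher and 1, *Flt1*, lower (−0.32, limma adjusted p = 0.0036), and at ZT13 all 4 were higher. Astrocyte markers rose from 519.4 to 552.9 CPM over both PBS groups to 1066 to 1773 CPM over both LPS groups, with 4 of 4 called higher at each time. Leptomeningeal fibroblast markers summed to 41.2 to 65.0 CPM with PBS and to 68.9 to 83.7 CPM with LPS. Of these 4, only *Dcn* was called at ZT1, from a mean of 8.76 to one of 26.2 CPM, while *Slc6a13* was at −0.14 on the log2 scale, and 3 were higher at ZT13. Of 5 microglial markers, 4 were higher and 1 lower with LPS at each time, and of 4 mural cell markers 1 was higher at ZT1 and 2 at ZT13. Of 4 oligodendrocyte markers, 1 was lower at ZT1 and 3 at ZT13, and of 4 neuronal markers 0 were lower at ZT1 and 3 at ZT13. No choroid plexus or erythrocyte marker was called with LPS, and the 3 lymphocyte markers, which summed to at most 0.909 CPM, were too low to be tested. The part of these cells in the annexin differences was not tested. Among ZT1 LPS mice, replicate 1 was the highest in *Anxa1*, in *Anxa2* and in neutrophil markers (40.7 CPM). The other mice did not keep that order. Replicate 4 had neutrophil markers at 35.8 CPM and *Anxa2* at 19.0 CPM, while replicate 5 had them at 8.02 and 21.3 CPM. At ZT1 replicate 2 had the lowest neutrophil markers of the LPS mice (6.80 CPM) and *Anxa1* at 2.91 CPM. Among ZT13 LPS mice, *Anxa2* was lowest in replicate 1 (27.7 CPM) and neutrophil markers in replicate 5 (27.4 CPM). *Anxa1* there ranked the mice in the same order as the neutrophil markers, from replicate 5 (2.06 and 27.4 CPM) to replicate 4 (5.23 and 77.4 CPM).

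**Figure D5:**
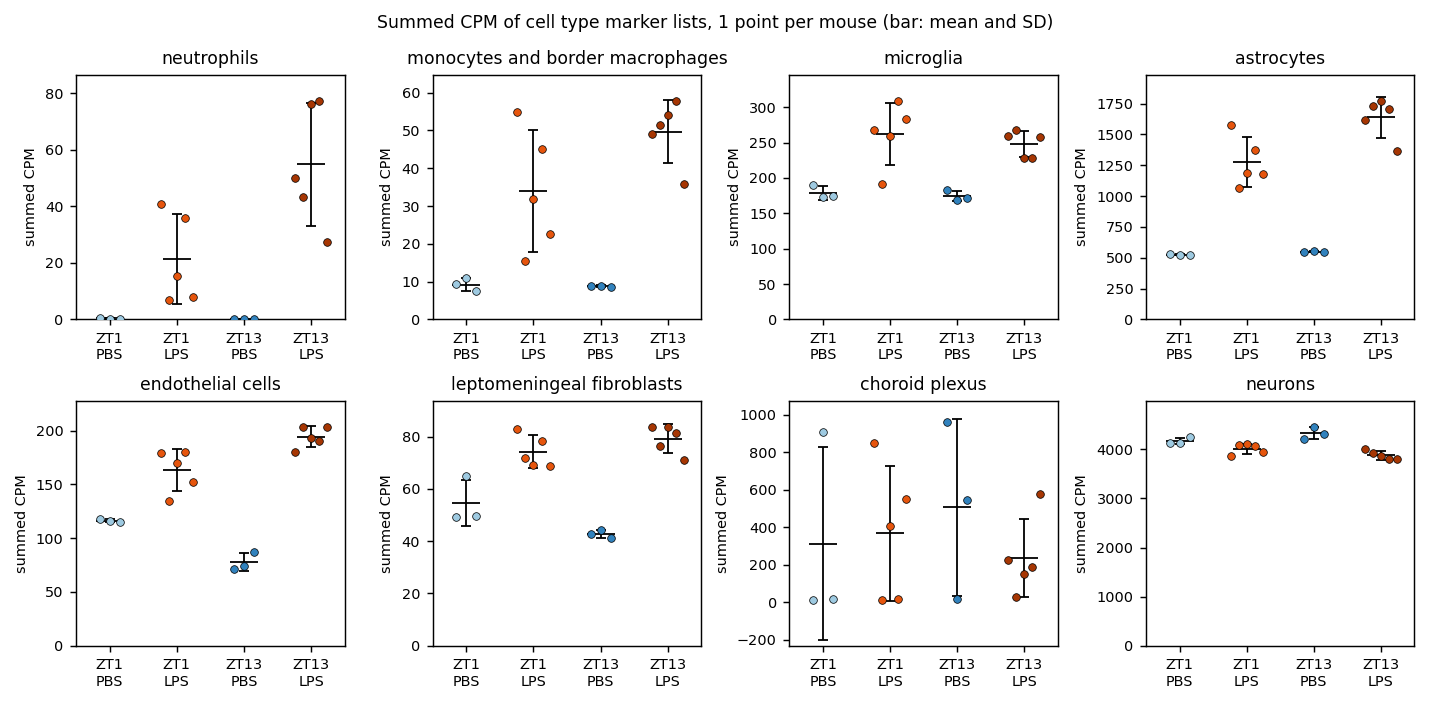
Summed CPM (y axis) of marker lists for 8 cell types in the 4 groups (x axis), 1 point per mouse, with the mean and SD as bars. Neutrophil markers lie at 0.542 CPM or less in PBS mice and at 6.80 CPM or more in LPS mice, and choroid plexus markers vary among mice within every group.

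The genes whose levels ran closest to each member's over the 16 mice, by Pearson's r of log2(CPM + 0.5), were found for description, since the 4 groups shared by all 16 points set most of each r. *Anxa2* ran with *Ehd2* (0.988), *Fermt3* (0.988) and *Arpc1b* (0.988). *Anxa1* ran with *Mgst1* (0.969), *Prdx1* (0.967) and *Ehd4* (0.965), and *Anxa3* with *Cavin1* (0.979), *Ptpn6* (0.972) and *Cyth4* (0.969). For *Anxa7* these were *Tns2*, *Coro1b* and *Os9*, for *Anxa11* *Sigirr*, *Edn1* and *Tnip1*, for *Anxa5* *Podxl*, *Shroom4* and *Creb3l2*, and for *Anxa4* *Tuba1c*, *Anpep* and *Spsb2*. *Anxa6* had the loosest neighbours, *Gm15500*, *Selplg* and *Zfp952*, at 0.884, 0.879 and 0.874.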

How the data were processed

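Total RNA of mouse cortex was depleted of ribosomal RNA (KAPA RiboErase) and sequenced, and per the labels the submitters' notes name bcl2fastq, DRAGEN 4.0.3-8 and GRCm38. The authors deposited 1 table of CPM (read counts scaled to 1000000 in each sample) with 1 column per mouse. Strand use and the counting rule are not given in the sources used here. Of 55774 lines, 287 repeats were dropped. Whole reads could not be recovered from the steps of the low values: up to 20 reads, 81.7 to 83.4% were whole within 0.02, so no count test was run.

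The filter kept 18859 genes (1 CPM or above in 3 or more of the 16 samples), and log2(CPM + 0.5) was fitted with limma 3.58.1 (R 4.3.3) with an intensity trend, on the 2 groups of each comparison and on all 16 samples for the interaction. p-values were adjusted by Benjamini-Hochberg over all genes tested, at 0.05. Fold changes on that scale understate changes of low genes. Single values were compared by two-sided exact permutation tests (scipy 1.17.1). The scripts were tested on simulated data.

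The text names the 8 members, the genes of 6 lists, the 3 genes that ran closest to each member, cell type markers and genes a result turned on. Members and lists were chosen with earlier results of these data known. Promoters came from RefSeq and coordinates from GENCODE M21 (both GRCm38). Alternatives to pseudocount, filter, scaling, weights, trend, block, pooled fit, the treatment field and each mouse in turn are given in the closing section.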

Additional observations from a re-analysis of the deposited data

Results flagged for a closer look

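In 16 groups of 5 mice tested (8 members, both LPS groups), 1 mouse, ZT1 LPS replicate 2, stood far below the other 4 for 2 members, where chance flags about 1 in 20 groups. Its *Anxa5* was at 24.9 CPM, with the nearest of the others at 34.3 CPM, and its *Anxa6* at 50.4 CPM, with the nearest at 64.6 CPM. This mouse also had the lowest *Anxa2* of its group, at 16.3 CPM, and the lowest summed markers of several cell types. These were neutrophils (6.80 CPM), monocytes and border macrophages (15.4), astrocytes (1066), microglia (192), endothelial cells (135), mural cells (108) and choroid plexus (11.5). It was not the lowest for neurons, leptomeningeal fibroblasts, oligodendrocytes, erythrocytes or lymphocytes. Whether the pattern reflects the mouse or the library was not tested.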

How the results depend on the processing

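For 40 log2 differences of members, the refits (other settings and each mouse left out) gave 806 values. Of these, 773 kept direction and side of the threshold. Each refit gave a value for every member it tested, so the values are not independent. With groups from the titles, each member was higher with LPS in every refit that tested it, at both times, except *Anxa6* at ZT1, at −0.00635 with median-of-ratios factors and −0.0193 with the replicate block. The members past the threshold numbered 4 to 7 at ZT1 and 5 to 8 at ZT13 over settings with all mice, and 5 to 7 and 7 to 8 when 1 mouse was left out. With the treatment field in place of the titles, a grouping that the *Lcn2* levels did not follow, the counts were 0 at ZT1, 0 at ZT13 and 1 between times in PBS mice. For ZT13 against ZT1 in LPS mice the count was 1 (*Anxa2*) with sample quality weights, where 225 of all genes were called. It was also 1 with one fit of all 16 samples, where 122 were called, beside 4 in the main fit. For the interaction it was 1 with sample quality weights (*Anxa2*, limma adjusted p = 0.029), where 124 of all genes were called, beside 30 in the main fit. Both counts were 0 to 1 when 1 mouse was left out. The cause was not tested.

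Other near-zero values changed sign. *Anxa6* between times in PBS mice was at −0.00168 with quality weights and −0.0129 with the choroid plexus covariate, and *Anxa7* in the interaction at 0.0123 with quality weights. When 1 mouse was left out, the PBS-mice difference ran from −0.0841 to 0.521 for *Anxa1*, −0.143 to 0.00487 for *Anxa4*, −0.0971 to 0.0134 for *Anxa5* and −0.0219 to 0.0359 for *Anxa6*, and the interaction from −0.194 to 0.411 for *Anxa1* and −0.0373 to 0.0151 for *Anxa7*. The *Anxa2* adjusted p ran from 0.021 to 0.38 in LPS mice and from 0.029 to 0.29 for the interaction over settings with all mice.

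Replicate numbers did not pair the mice: same-numbered samples correlated by −0.199 to 0.328 over 20 pairs, 3 of them above 0.1, and 4 of 16 samples correlated best with their own number. With the replicate block, *Anxa11* at ZT1 was at 0.23 (adjusted p = 0.082) and *Anxa6* at ZT13 passed (adjusted p = 0.0098). Over settings with all mice, the genes called numbered 1605 to 4097 at ZT1, where the report has 3061, and 4332 to 5676 at ZT13 (5401). Between times they numbered 0 to 225 in LPS mice (4) and 3 to 199 in PBS mice (98), and for the interaction 11 to 124 (30). With 1 mouse left out they numbered 1763 to 3760 at ZT1 (1763, 1869 and 1782 without ZT1 PBS replicates 1, 2 and 3), 4330 to 5544 at ZT13, 0 to 345 in LPS mice and 11 to 104 for the interaction (the highest of both without ZT1 LPS replicate 1), and 12 to 87 in PBS mice, so the shares of all genes printed beside the members' counts move likewise. The share of calls that were higher at ZT1 and ZT13 fell to 51.1% and 45.0% with quantile normalization. Groups of 3 and 5 mice, and CPM without counts, limit the precision.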
